A study of Mus musculus with 42 samples.

Results

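Mouse bone marrow-derived macrophages (BMDMs) kept for 24 h with vehicle were compared with untreated BMDMs across 11160 genes. The comparison took 12 of the series' 42 mRNA libraries, chosen by their labelled treatment and time: 6 vehicle 24 h libraries (3 WT and 3 KO) and 6 untreated libraries (3 WT and 3 KO, labelled 0 h). KO cells lack MS4A4A, a membrane protein of the MS4A family. Libraries of vehicle at 2 h and 8 h (3 WT and 3 KO at each time) served to place the 24 h values in time, and those of 1 µM dexamethasone (Dex), a glucocorticoid, at 24 h (3 WT and 3 KO) were used only where a vehicle library or gene group is set beside them. All cells were grown for 6 days in IMDM with 10% FBS and M-CSF at 50 ng/ml, detached with Accutase, replated in 12-well plates and stimulated on the following day. Untreated cells received no vehicle, so 24 h more in culture and exposure to vehicle cannot be told apart. The sources used here name neither the vehicle nor the part of the gene that the KO lacks. No label ties the replicates to separate cultures or animals, so p-values cover only the spread between these libraries, and that spread may be technical.

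BMDMs are precursors driven by M-CSF, the ligand of the receptor Csf1r, to become adherent macrophages. Macrophages keep a basal programme of interferon-stimulated genes, which are switched on when interferon receptors activate transcription factors that bind the interferon-stimulated response element (ISRE). They also balance cholesterol through 2 opposed programmes: SREBP2 drives sterol synthesis, and LXR drives cholesterol export and apolipoprotein E.

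The 12 libraries held between 10140211 and 32121970 counts, with untreated WT replicate 3 the shallowest, and between 11135 and 11156 of the genes had at least 1 count. All 10 macrophage markers were measured in every library, from 56.9 to 33011 CPM, the count scaled to library size. Ms4a4a itself was at 91.9, 81.8 and 93.5 CPM in the untreated WT libraries and at 44.3, 46.3 and 49.6 CPM in the untreated KO libraries. At 24 h it was at 213, 142 and 148 CPM in WT and at 93, 179 and 53.5 CPM in KO, where replicate 2 stood above 2 of the 3 WT libraries. Counts over the whole gene include transcript outside the deleted part, so these levels are a limited check of the labels. Results that rest on KO 24 h replicate 2 are given below with and without it. Mitochondrially encoded transcripts took 0.553 to 0.779% of the counts in untreated libraries and 0.783 to 1.05% at 24 h, 2 ranges that did not overlap; the part of this difference in the results below was not tested.

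Over both genotypes, 1745 genes rose (15.6% of the genes tested) and 1719 fell (15.4%) by edgeR's quasi-likelihood test at a Benjamini-Hochberg adjusted p under 0.05, together 31% of genes. Large changes were mostly losses: 253 called genes fell more than 2-fold (2.27%) against 116 that rose as far (1.04%), and 84 fell more than 4-fold (0.753%) against 7 that rose as far (0.0627%). The 6 vehicle 24 h libraries lay wholly above the 6 untreated libraries for 648 genes (5.81%) and wholly below them for 740 (6.63%). The median log2 fold change over all genes was -0.000637. Without KO 24 h replicate 2, 1534 genes rose (13.7%) and 1489 fell (13.3%), and 2919 of the 3464 calls were shared.

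**Figure D1:**
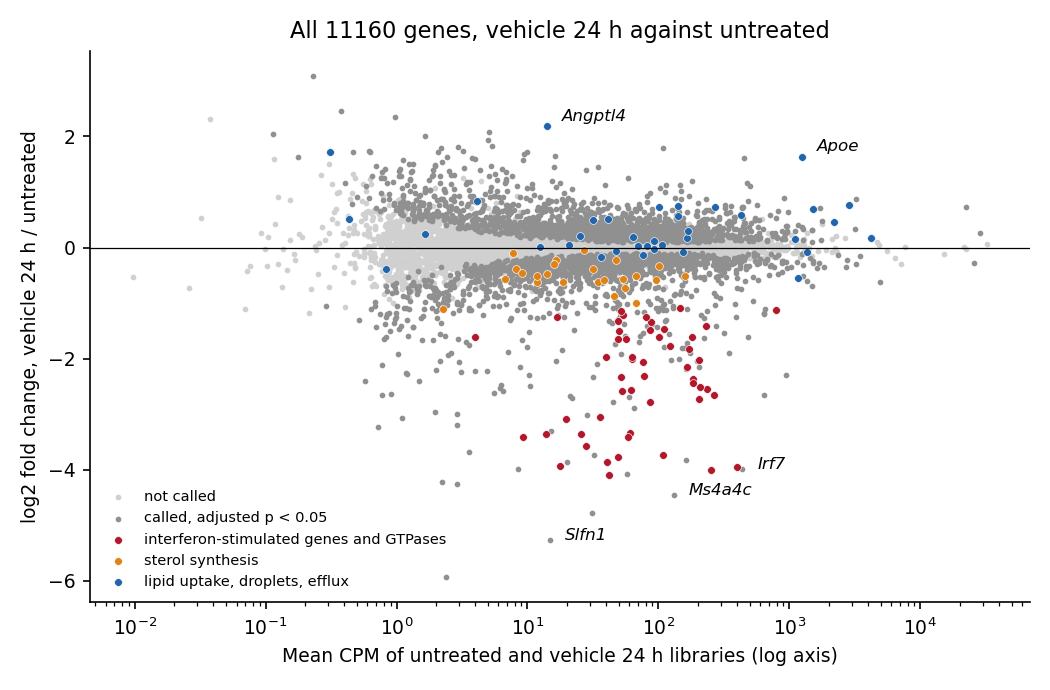
Log2 fold change of vehicle 24 h over untreated (y axis) against the mean CPM of the 12 libraries (x axis, log scale); each point is 1 gene. The interferon-stimulated genes and GTPases (red) all lie below 0, as do the sterol synthesis genes (orange), while Angptl4 and Apoe stand among the highest of the lipid genes (blue).

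Interferon-stimulated genes were among the largest losses. Of the list of interferon-stimulated genes, 36 of 36 measured members fell, against 15.4% of all genes, with a median log2 fold change of -2.40. All 36 were also lower in every 24 h library than in every untreated library, against 6.63% of all genes. The summed level of the list ran from 7415 to 9477 CPM in untreated libraries and from 1641 to 2281 CPM at 24 h. In WT alone and in KO alone, 36 of 36 fell as well, against 7.81% and 9.98% of all genes. The smallest change on the list was that of Parp14, a mono-ADP-ribosyltransferase, with a log2 fold change of -1.09 ± 0.17 (SE).

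Irf7, the transcription factor that amplifies type I interferon production, was at 685, 763 and 1118 CPM (lowest, median and highest of the 6 untreated libraries) and at 33, 46.2 and 80 CPM at 24 h. It fell 15.8-fold (log2 fold change -3.98 ± 0.17, adjusted p = 8.31e-19), and the lowest untreated library was far above the highest at 24 h. Ifit3, which joins other IFIT proteins that recognise foreign RNA, was at 354, 440 and 636 CPM untreated and at 17.6, 24.3 and 52.3 CPM at 24 h. Its 15.9-fold fall (-3.99 ± 0.27, adjusted p = 7.75e-14) left every 24 h library below every untreated library. Its close copy Ifit3b fell by 4.09 ± 0.24 on the log2 scale; reads of the pair may have been split between them in the deposited counts.

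Isg15, a ubiquitin-like protein that is joined to other proteins, was at 53.8, 67.5 and 115 CPM untreated and at 3.53, 5.51 and 6.28 CPM at 24 h, 14.5-fold lower (adjusted p = 5.25e-16). Ifit1, which binds RNA that lacks a host-type cap, went from 167, 191 and 246 CPM to 7.54, 12.9 and 29.6 CPM (-3.73 ± 0.28, adjusted p = 1.19e-12). Rsad2, the antiviral enzyme viperin, went from 343, 360 and 550 CPM to 43.7, 57.6 and 124 CPM (-2.54 ± 0.22, adjusted p = 3.32e-11). None of these 3 genes overlapped between the groups. Zbp1, a sensor of Z-form nucleic acid, went from 92.7, 108 and 138 CPM to 8.66, 11.1 and 12.4 CPM, with a small error for its size (-3.34 ± 0.12, adjusted p = 1.37e-20).

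Among the genes with at least 5 CPM on a side and no overlap, the 12 with the lowest log2 fold changes were Slfn1, Ms4a4c, Plac8, Ifit3b, Ifit3, Slfn4, Irf7, Ifit2, Tgtp1, Pydc3, Isg15 and Ly6a. Slfn1, a Schlafen family gene, was at 23.1, 28.5 and 36.2 CPM untreated and at 0.199, 0.794 and 1.23 CPM at 24 h, 38.5-fold lower (-5.27 ± 0.27, adjusted p = 6.92e-17). Ms4a4c, a family member of the deleted gene, was at 176, 222 and 417 CPM untreated and at 7.52, 10.6 and 18.6 CPM at 24 h, 21.8-fold lower (adjusted p = 5.44e-17). Ly6a, the surface protein Sca-1, went from 234, 282 and 397 CPM to 13.5, 19.1 and 38.4 CPM, 14.2-fold lower. The groups stood apart for all 3. Schlafen, Ms4a and Pydc genes lie in families of similar genes, so their counts carry the uncertainty of reads shared between copies. Ly6e, a related surface protein on the interferon list, had one of the largest losses in level, from 1322, 1506 and 1945 CPM to 269, 300 and 466 CPM (-2.30 ± 0.11, adjusted p = 1.37e-17).

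All 16 measured interferon-inducible GTPases fell, against 15.4% of all genes, with a median of -1.96. For all 16 every 24 h library was below every untreated library, as for 6.63% of all genes. Irgm1 stands on both lists. These proteins attack the vacuoles of intracellular microbes. Gbp2 was at 67.1, 77.5 and 136 CPM untreated and at 13.2, 15.8 and 22.5 CPM at 24 h (-2.33 ± 0.16, adjusted p = 1.27e-13). Irgm1, a regulator of the family, went from 293, 319 and 380 CPM to 63.4, 82.6 and 93.4 CPM (-2.02 ± 0.11, adjusted p = 1.83e-16). Tgtp1, a T-cell-specific GTPase with a near-identical copy, was at 7.42, 34.1 and 73.6 CPM untreated and at 0, 2.12 and 6.09 CPM at 24 h, with KO 24 h replicates 1 and 3 at 0. It was called (adjusted p = 3.64e-06), but its fitted fold change moved from -3.93 to -7.64 on the log2 scale without KO 24 h replicate 2, and no size is read from it.

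The promoters of these genes are shown because the ISRE is the sequence through which interferon switches on its target genes. RefSeq promoter windows (GRCm38.p6) matched 8592 of the 11160 genes by symbol (77%), and the 250 bases before each gene's start were searched on both strands for GAAANNGAAA, of which TTTCNNTTTC is the reverse. The stretches below run 5′ to 3′ on each gene's strand, with the match in capitals.
Ifit1: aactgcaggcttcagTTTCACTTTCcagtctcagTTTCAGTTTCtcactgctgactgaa
Ifit3: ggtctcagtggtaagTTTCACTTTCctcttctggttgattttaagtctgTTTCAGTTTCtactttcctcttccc
Isg15: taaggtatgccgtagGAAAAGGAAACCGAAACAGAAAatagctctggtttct
Rsad2: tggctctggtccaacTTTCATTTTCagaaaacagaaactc
Gbp2: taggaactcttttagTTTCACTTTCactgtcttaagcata
Tgtp1: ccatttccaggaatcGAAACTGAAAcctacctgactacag
B2m: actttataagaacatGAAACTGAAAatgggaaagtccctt
Ifit1 lies at chr19:34640770-34640828 (plus strand), 119 to 61 bases before the start, and Ifit3 at chr19:34583358-34583431 (plus strand), 171 to 98 bases before it; each holds 2 matches. The Ifit3b window holds the same 74 bases with 0 differences. Isg15 lies at chr4:156200860-156200911 (minus strand) and holds 3 overlapping matches. The others hold 1 match: Rsad2 at chr12:26456548-26456587 (minus), Gbp2 at chr3:142620589-142620628 (plus), Tgtp1 at chr11:48992299-48992338 (minus) and B2m at chr2:122147533-122147572 (plus).

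The ISRE letters were found for 3.38% of the measured genes with a window. They were found for 36.5% of the 52 windowed genes that fell more than 4-fold and 25.3% of the 174 that fell more than 2-fold, but for 1.23% of the 81 that rose more than 2-fold. By list, they were found for 14 of 28 windowed interferon-stimulated genes (50%) and 9 of 10 windowed GTPases (90%), and for fewer genes of the class I (2 of 15, 13.3%) and class II (1 of 7, 14.3%) presentation lists described below. The shorter palindrome TTCNNNGAA, the core of the interferon gamma-activated site, was found for 7.24% of measured genes, 17.9% of the interferon-stimulated genes and 60% of the GTPases. Of the 12 named genes with the lowest fold changes, 10 had a window and 4 of those held the ISRE letters. A match is a description of the letters and not evidence of binding here.

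The signalling factors of the interferon pathway moved both ways, with 5 of 19 higher (26.3%) and 7 lower (36.8%). The shares of all genes were 15.6% and 15.4%. Irf7, described above, stands on this list and had its lowest log2 fold change (-3.98). Stat2 was at 219, 243 and 323 CPM untreated and at 60.1, 76.3 and 93.4 CPM at 24 h (-1.72 ± 0.13, adjusted p = 2.13e-12). Irf9, the DNA-binding partner of STAT2, went from 106, 109 and 115 CPM to 49.7, 54.4 and 68.3 CPM (-0.96 ± 0.07, adjusted p = 2.51e-12). The groups did not overlap for either gene. Socs1, a feedback inhibitor of the receptors' kinases, fell by 0.98 ± 0.16. Higher were Ifngr1, the ligand-binding chain of the interferon gamma receptor (0.52 ± 0.06, adjusted p = 3.83e-08, from 181, 190 and 205 CPM to 243, 264 and 333 CPM), Irf8, Jak1, Ifnar1 and Irf2, the last 4 by 0.17 to 0.23 on the log2 scale.

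Antigen presentation genes were lower on both arms. Of the class I presentation and immunoproteasome list, 17 of 18 measured members fell, against 15.4% of all genes, and none rose. Their median log2 fold change was -0.76. B2m, the light chain of class I molecules, was at 5306, 5824 and 6671 CPM untreated and at 3565, 3953 and 4165 CPM at 24 h, 1.53-fold lower (-0.61 ± 0.06, adjusted p = 8.94e-10). The non-classical molecule H2-T23 went from 426, 458 and 556 CPM to 143, 165 and 186 CPM (-1.54 ± 0.06, adjusted p = 1.87e-19), and Tapbp, which loads peptide, went from 815, 858 and 993 CPM to 354, 387 and 444 CPM (-1.18 ± 0.06). The groups did not overlap for these 3 genes, and H2 genes share sequence with their neighbours.

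Of the class II list, 8 of 10 fell (80%, against 15.4% of all genes) and 1 rose, with a median of -0.91. H2-Ab1, a chain of the I-A molecule, was at 156, 175 and 219 CPM untreated and at 44, 63.1 and 68.9 CPM at 24 h (-1.55 ± 0.10, adjusted p = 8.02e-14). The invariant chain Cd74 went from 707, 846 and 1218 CPM to 318, 410 and 502 CPM (-1.10 ± 0.12), and Ciita, the master regulator of class II transcription, from 3.32, 4.33 and 6.64 CPM to 0.861, 1.2 and 2.31 CPM (-1.65 ± 0.27, adjusted p = 9.66e-06). No 24 h library reached the untreated range of these genes. The member that rose, H2-DMb2, was at 0.66 to 1.76 CPM untreated and 1.41 to 2.56 CPM at 24 h and lost its call without KO 24 h replicate 2 (adjusted p = 0.0301 with it and 0.081 without). Ctss, the protease that trims the invariant chain, did not pass the test (0.05 ± 0.05, adjusted p = 0.47).

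Of 11 costimulatory and checkpoint molecules, 7 fell (63.6%, against 15.4% of all genes) and 1 rose (9.09%, against 15.6%). Cd86, a ligand of CD28, went from 55.9, 59.7 and 74.8 CPM to 20.2, 30.6 and 33.9 CPM (-1.09 ± 0.12, adjusted p = 6.02e-09). Lgals9, the ligand of TIM-3, fell by 1.42 ± 0.09 on the log2 scale. The libraries did not overlap for either gene.

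Of 21 inflammatory cytokines and chemokines, 14 fell (66.7%, against 15.4% of all genes) and none rose, with a median of -0.72. Ccl2, the monocyte attractant, was at 169, 233 and 299 CPM untreated and at 16.5, 48.1 and 119 CPM at 24 h (-2.01 ± 0.31, adjusted p = 4.25e-06), a wide spread that still left the groups apart. Its receptor Ccr2 went from 78.7, 101 and 122 CPM to 8.77, 16.9 and 21.5 CPM, 6.42-fold lower (-2.68 ± 0.21, adjusted p = 3.5e-12). Cxcl9, an attractant of T cells induced by interferon gamma, was low throughout, at 2.24, 2.73 and 8.93 CPM untreated and 0.071, 0.221 and 0.474 CPM at 24 h (-4.21 ± 0.44, adjusted p = 2.21e-09). Csf1, the gene of M-CSF, went from 50.7, 63.3 and 83.7 CPM to 21.4, 24.6 and 29.5 CPM (-1.35 ± 0.11, adjusted p = 1.1e-11), in cells whose medium was supplied with M-CSF during differentiation. Tnf fell by 0.51 ± 0.13 on the log2 scale (adjusted p = 0.0027). Il1b was at 1.83 to 5.45 CPM untreated and at 1.12 to 2.74 CPM at 24 h, and its difference was not called (adjusted p = 0.21).

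Of 14 chemoattractant receptors, 5 rose (35.7%, against 15.6% of all genes) and 2 fell, Ccr2 among the latter. The share that fell (14.3%) was near the 15.4% of all genes. C5ar1, the receptor of complement fragment C5a, went from 757, 830 and 853 CPM to 861, 1050 and 1408 CPM (0.40 ± 0.08, adjusted p = 0.000113). Cxcr4, the receptor of CXCL12, rose by 0.49 ± 0.10.

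The Fc receptors were divided, with 3 of 6 higher and 3 lower (50% each, against 15.6% and 15.4% of all genes). Without KO 24 h replicate 2, 2 were higher and 3 lower. Fcgr1, the high-affinity IgG receptor, was at 204, 223 and 330 CPM untreated and at 56.9, 63.1 and 84.2 CPM at 24 h (-1.81 ± 0.11, adjusted p = 2.92e-15). Fcgr3, a low-affinity activating receptor, went up from 607, 623 and 699 CPM to 870, 982 and 1151 CPM (0.66 ± 0.06, adjusted p = 1.17e-10). Fcgrt, the neonatal receptor that recycles IgG and albumin, went up from 58.6, 71.7 and 84.8 CPM to 111, 158 and 187 CPM (1.13 ± 0.11, adjusted p = 1.42e-09). The libraries of the 2 times did not overlap for these 3 genes. In bulk RNA, fewer cells that express a gene and less of its RNA per cell cannot be told apart, here and in all results.

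**Figure D2:**
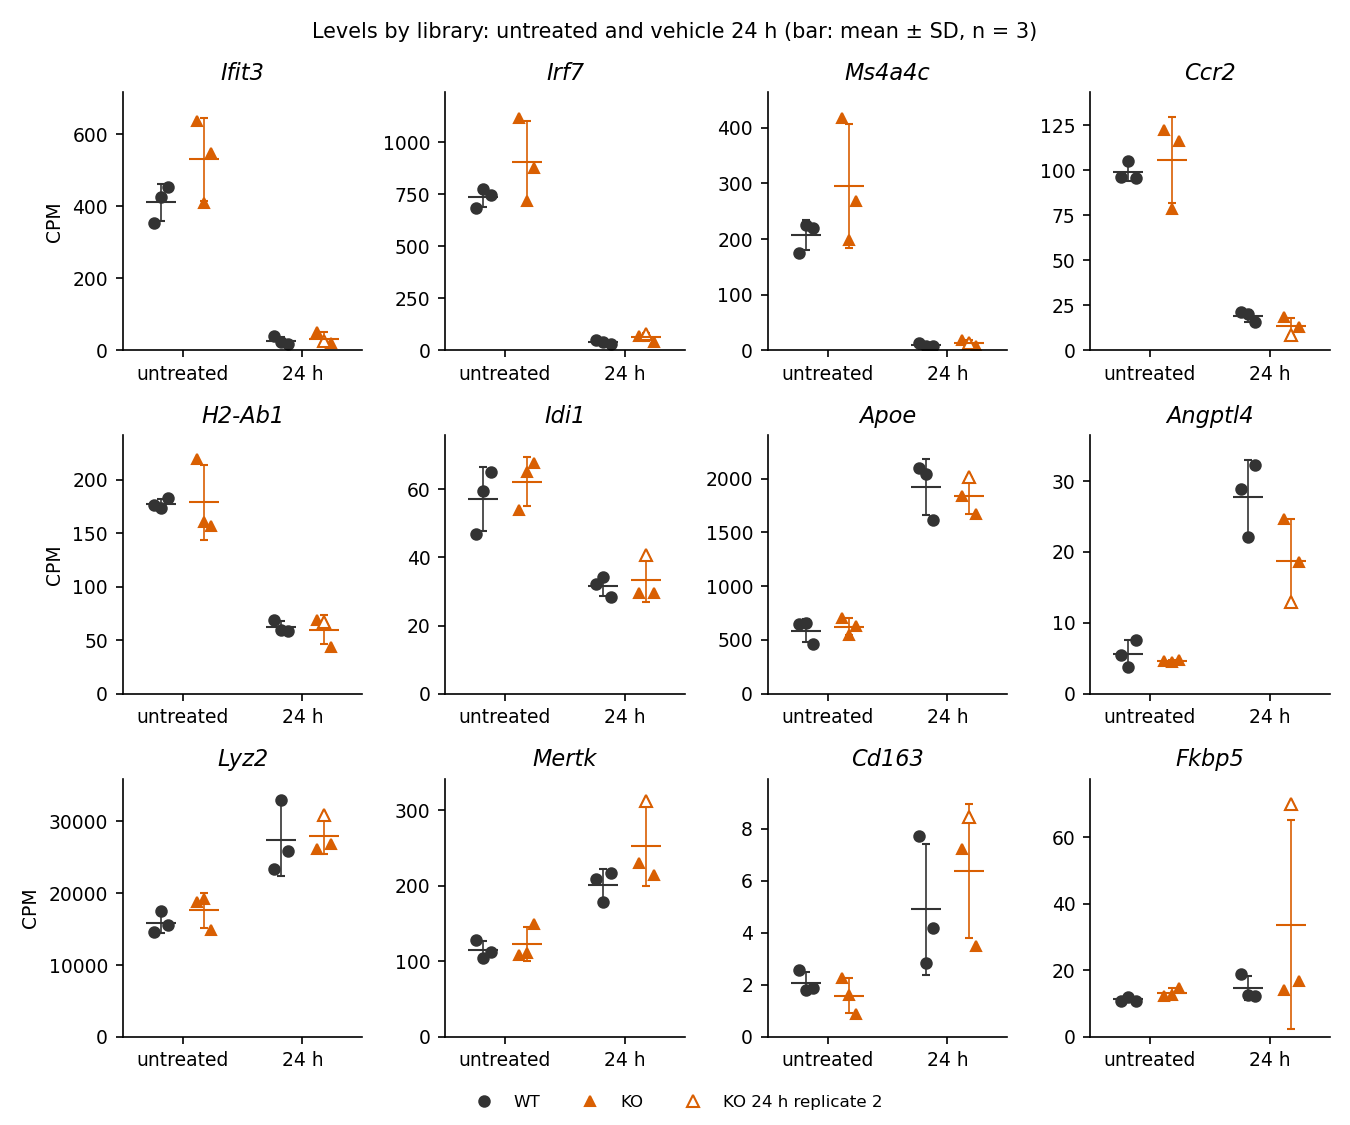
CPM (y axis, from 0, a scale of its own in each panel) of 12 genes in each untreated and vehicle 24 h library; circles are WT, triangles KO, the open triangle KO 24 h replicate 2, and bars the mean ± SD of 3 libraries. Ifit3, Irf7, Ms4a4c, Ccr2, H2-Ab1 and Idi1 are lower at 24 h in every library, and Apoe, Angptl4, Lyz2, Mertk and Cd163 are higher; Fkbp5 reaches 69.9 CPM in KO 24 h replicate 2 and lies between 12.4 and 19 CPM in the other 24 h libraries.

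Sterol synthesis genes fell by smaller amounts. Of 24 measured members, 21 fell and none rose, against 15.4% of all genes that fell, with a median log2 fold change of -0.51. For 16 members every 24 h library was below every untreated library, as for 6.63% of all genes. Their summed level was 1032 to 1258 CPM untreated and 700.4 to 827 CPM at 24 h. Idi1, which isomerises the isoprenoid precursor, was at 46.9, 62.2 and 67.7 CPM untreated and at 28.3, 31 and 40.6 CPM at 24 h (-0.87 ± 0.11, adjusted p = 1.09e-07). Cyp51, the lanosterol demethylase, went from 59.5, 69.5 and 76.3 CPM to 36, 42.6 and 46.8 CPM (-0.73 ± 0.09, adjusted p = 2e-07).

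Srebf2, the gene of the pathway's activator, fell by 0.52 ± 0.08 on the log2 scale, and Insig1, which holds the SREBP proteins in the endoplasmic reticulum, by 0.58 ± 0.12. Hmgcs1, an early enzyme of the pathway, changed least firmly of those named here (-0.32 ± 0.12, adjusted p = 0.0316) and kept its call in 8 of 12 fits that each left out 1 library. The 3 members that were not called were Tm7sf2, Sc5d and Dhcr7.

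CCAAT, the box bound by NF-Y, a partner of SREBP in these promoters, was found for 16 of the 17 sterol genes with a window (94.1%) and for 41% of measured genes. The sterol element TCACNCCAC was found for 1 of the 17 (5.88%), against 1.2% of measured genes. The stretches closest to the start are shown for 3 enzymes, with CCAAT or its reverse ATTGG in capitals.
Idi1: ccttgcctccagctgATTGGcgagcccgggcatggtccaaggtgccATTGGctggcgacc
Cyp51: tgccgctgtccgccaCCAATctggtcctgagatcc
Hmgcs1: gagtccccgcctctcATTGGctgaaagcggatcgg
Idi1 lies at chr13:8885546-8885605 (plus strand) and holds 2 matches, the last ending near the start. Cyp51 lies at chr5:4104707-4104741 (minus strand). Hmgcs1 lies at chr13:119690291-119690325 (plus strand), where 1 of its 3 matches is shown.

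Fatty acid synthesis and desaturation genes included 5 of 13 that fell (38.5%, against 15.4% of all genes) and none that rose. Scd2, a stearoyl-CoA desaturase, went from 46, 60.8 and 96.2 CPM to 19.6, 34.7 and 40.7 CPM (-1.02 ± 0.20, adjusted p = 0.000112).

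Cholesterol export and lipid handling genes moved the other way. Of 13 LXR targets and cholesterol efflux genes, 8 rose and 1 fell, with a median of 0.17, against 15.6% of all genes that rose. Without KO 24 h replicate 2, 7 rose and 1 fell. Apoe, the apolipoprotein that carries exported cholesterol, was at 459, 639 and 700 CPM untreated and at 1619, 1926 and 2097 CPM at 24 h, 3.11-fold higher (1.63 ± 0.14, adjusted p = 1.2e-11), with a wide gap between the groups. Abca1, which loads cholesterol onto apolipoproteins, went from 149, 186 and 272 CPM to 277, 339 and 408 CPM (0.73 ± 0.14, adjusted p = 9.97e-05); its lowest 24 h library was just above its highest untreated library. Nr1h3, the gene of LXR alpha, rose by 0.50 ± 0.10, and Mylip, a ubiquitin ligase induced by LXR, by 0.52 ± 0.08. Npc2, which hands cholesterol out of the lysosome, was the member that fell, from 1226, 1314 and 1677 CPM to 876, 927 and 1020 CPM (-0.55 ± 0.06, adjusted p = 2.11e-09).

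Of 23 genes of lipid uptake, droplets and oxidation, 11 rose (47.8%, against 15.6% of all genes) and none fell, with a median of 0.22. Without KO 24 h replicate 2, 10 rose. Angptl4, a secreted inhibitor of lipoprotein lipase, had the highest log2 fold change of the genes with at least 5 CPM on a side and no overlap. It was at 3.78, 4.67 and 7.58 CPM untreated and at 13, 23.4 and 32.3 CPM at 24 h, 4.55-fold higher (2.19 ± 0.17, adjusted p = 1.8e-12). Plin2, the coat protein of lipid droplets, went from 1956, 2151 and 2219 CPM to 3091, 3462 and 4276 CPM (0.77 ± 0.07, adjusted p = 2.65e-10). The fatty acid translocase Cd36 went from 1012, 1214 and 1301 CPM to 1398, 1956 and 2525 CPM (0.69 ± 0.14, adjusted p = 0.000239). The groups stood apart for these 3. Pnpla2, the lipase that starts droplet breakdown, rose by 0.73 ± 0.06. Lpl, the lipase that Angptl4 inhibits, was at 3318 to 4833 CPM untreated and at 3226 to 5730 CPM at 24 h, and its difference was not called (adjusted p = 0.284).

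Of 14 scavenger and efferocytosis receptors, 9 rose (64.3%, against 15.6% of all genes) and 1 fell, with a median of 0.57. Mertk, a kinase receptor for apoptotic cells, was at 104, 112 and 149 CPM untreated and at 178, 215 and 312 CPM at 24 h (0.92 ± 0.09, adjusted p = 3.81e-10). Axl, a receptor of the same family, was the member that fell, from 134, 153 and 179 CPM to 58.8, 69.7 and 91.5 CPM (-1.12 ± 0.12, adjusted p = 5.47e-09). Stab1, a receptor for modified lipoproteins and cell debris, went from 218, 254 and 330 CPM to 381, 451 and 536 CPM (0.74 ± 0.07), and Mrc1, the mannose receptor, from 229, 262 and 347 CPM to 362, 402 and 552 CPM (0.64 ± 0.10). No library of 1 time reached into the range of the other for these 4 genes. Cd163, the haemoglobin scavenger receptor, was rare, at 0.897, 1.83 and 2.57 CPM untreated and 2.84, 5.71 and 8.45 CPM at 24 h (1.61 ± 0.23, adjusted p = 1.21e-06).

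The 12 named genes with the highest log2 fold changes were Angptl4, Ctla2a, Sult1a1, Itga9, Sort1, Hpgd, Serpine2, Nptx1, Apoe, Cd163, Trf and Dnah2. Sort1, a sorting receptor of the Golgi and endosomes, was at 37.2, 46.1 and 64.6 CPM untreated and at 128, 165 and 204 CPM at 24 h (1.79 ± 0.14, adjusted p = 2.1e-12). Trf, the iron carrier transferrin, went from 192, 229 and 240 CPM to 544, 695 and 775 CPM with the smallest error of the 12 (1.60 ± 0.07, adjusted p = 2.79e-19). Hpgd, which inactivates prostaglandins, went from 3.32, 5.1 and 6.2 CPM to 11.3, 14.6 and 19.3 CPM (1.71 ± 0.15, adjusted p = 2.32e-11). Among abundant transcripts, lysozyme Lyz2 went from 14647, 16530 and 19194 CPM to 23324, 26523 and 33011 CPM (0.73 ± 0.09, adjusted p = 1.13e-07), and the selenium carrier Sepp1 from 1952, 2289 and 2735 CPM to 3539, 4301 and 4749 CPM (0.87 ± 0.07). The groups did not overlap for these 5 genes.

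Macrophage identity genes were mixed, with 8 of 23 higher (34.8%) and 5 lower (21.7%), or 7 and 3 without KO 24 h replicate 2. The shares of all genes were 15.6% and 15.4% with all libraries. Csf1r went from 1360, 1454 and 1723 CPM to 1858, 2018 and 2495 CPM (0.48 ± 0.10, adjusted p = 0.000316). Adgre1, the gene of F4/80, was at 1770 to 2128 CPM untreated and at 1648 to 2004 CPM at 24 h and did not pass the test (-0.04 ± 0.06, adjusted p = 0.644). Gpnmb, among the most abundant transcripts, did not pass it either (0.01 ± 0.06, adjusted p = 0.917).

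Genes of the NRF2, glutathione and thioredoxin systems included 12 of 26 that rose (46.2%) and 2 that fell (7.69%), with a median of 0.14. Without KO 24 h replicate 2, 11 rose and 2 fell. Gclm, the modifier of the rate-limiting step of glutathione synthesis, went from 83.1, 109 and 140 CPM to 159, 285 and 301 CPM (1.20 ± 0.18, adjusted p = 2.04e-06). Gsr, which regenerates reduced glutathione, went from 64.5, 75.3 and 83 CPM to 131, 147 and 178 CPM (1.00 ± 0.07, adjusted p = 1.03e-13), and Hmox1, which breaks down haem, from 296, 353 and 373 CPM to 513, 627 and 688 CPM (0.85 ± 0.12, adjusted p = 2.18e-06). The groups did not overlap for these 3 genes. Of 13 mitochondrially encoded transcripts, 11 rose and none fell, with a median of 0.43, alongside the higher mitochondrial share of counts given above. Of 49 nuclear genes of oxidative phosphorylation none rose, against 15.6% of all genes. Lower were 6 (12.2%), a share near the 15.4% of all genes, or 5 without KO 24 h replicate 2.

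**Figure D3:**
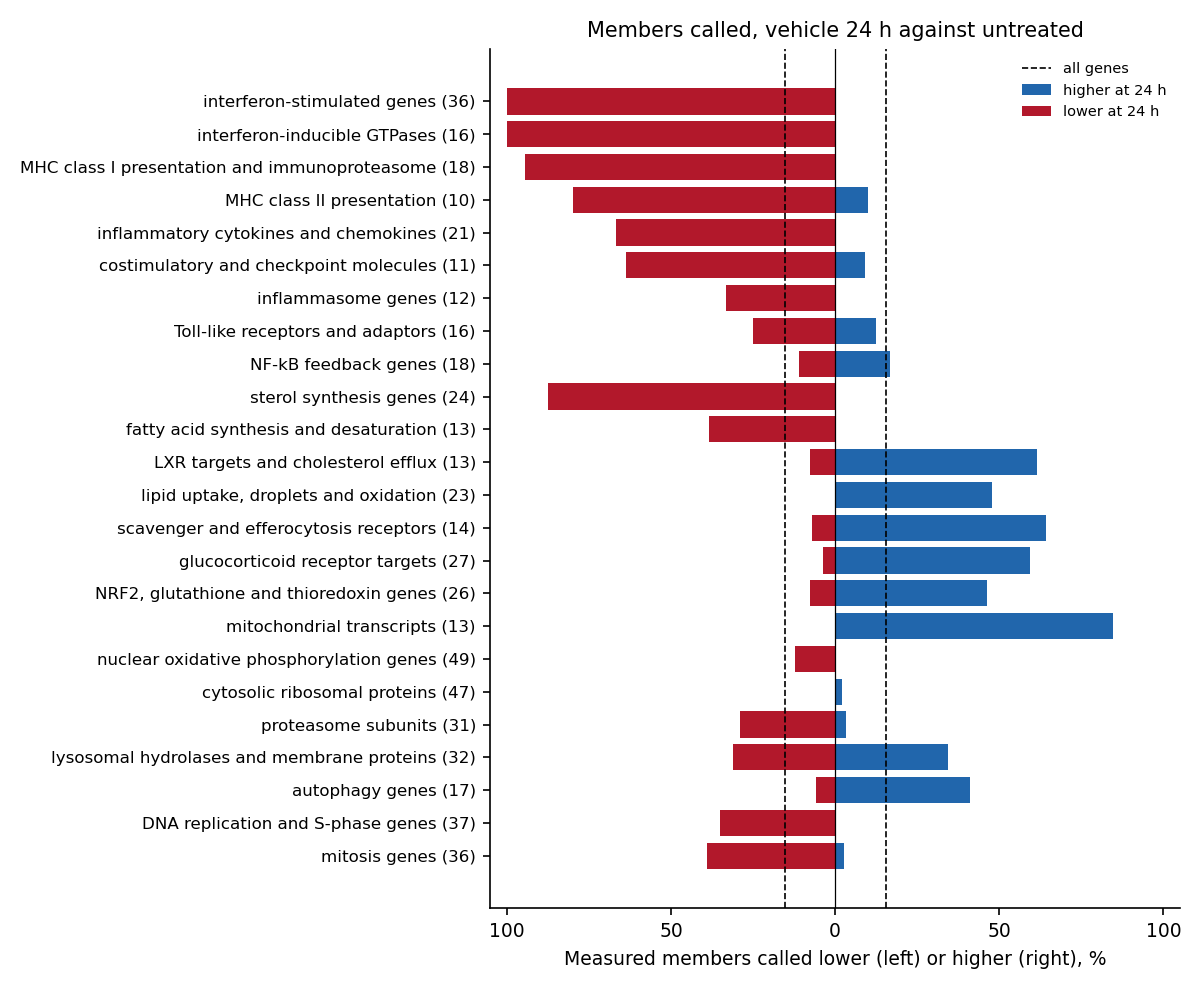
Percentage of each list's measured members (number in brackets) called lower (left, red) or higher (right, blue) at 24 h; dashed lines mark the share over all genes, 15.4% lower and 15.6% higher. Interferon, antigen presentation, cytokine, sterol synthesis and fatty acid synthesis lists extend mostly or only to the left. The LXR, lipid uptake, scavenger, glucocorticoid and mitochondrial transcript lists extend mostly or only to the right. Nuclear oxidative phosphorylation genes extend only to the left, to 12.2%.

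Against vehicle 8 h, which does not use the untreated libraries, 1013 genes were higher at 24 h (9.08%) and 896 lower (8.03%). Against vehicle 2 h, 1966 were higher (17.6%) and 2089 lower (18.7%). The 3 comparisons share the 24 h libraries. The interferon-stimulated genes were already reduced at earlier times: the 2 h libraries summed to 5027 to 6259 CPM and the 8 h libraries to 2273 to 3896 CPM, with 1641 to 2281 CPM left by 24 h. Of the 36, 21 were lower at 24 h than at 8 h and none higher, or 20 lower without KO 24 h replicate 2.

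Irf7, one of the interferon signalling factors, and Rsad2, of the interferon-stimulated list, followed different courses. The mean of Irf7 was 820 ± 159 CPM untreated (SD, n = 6), 693 CPM after 2 h, 376 CPM after 8 h and 52.9 ± 18.6 CPM after 24 h (SD, n = 6), and its change from 8 to 24 h (-2.84 ± 0.16, adjusted p = 3.24e-14) was the lowest among genes with at least 5 CPM on a side and no overlap. Rsad2 was at 43.1, 63.6 and 155 CPM at 8 h and its difference from 24 h missed the threshold (-0.11, adjusted p = 0.788). On the log2 scale most of the distance of Irf7 thus lay after 8 h, while the 8 h and 24 h libraries overlapped for Rsad2.

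Sterol synthesis genes summed to 1118 to 1463 CPM in 2 h libraries and to 971 to 1291 CPM in 8 h libraries, and 19 of 24 were lower at 24 h than at 8 h (median -0.62). Idi1 was at 50.8, 66.7 and 70.7 CPM at 8 h, 0.99 above its 24 h level on the log2 scale. Apoe had means of 606, 580, 777 and 1881 CPM at 0, 2, 8 and 24 h and rose by 1.28 ± 0.13 after 8 h. Tgfbi, a secreted adhesion protein, was at 53.3, 87 and 97.6 CPM untreated, at 79, 98.9 and 104 CPM after 8 h and at 15.5, 23 and 26.1 CPM after 24 h, a loss that came after 8 h (-2.15 ± 0.15). In 8 h libraries Hmox1 was at 558, 714 and 855 CPM and Gclm at 216, 289 and 397 CPM, and neither difference from 24 h passed the test (adjusted p = 0.31 and 0.25). The highest rises from 8 h under the same conditions were those of Dnah2 (2.13), an axonemal dynein, Stab2 (2.02), a hyaluronan scavenger receptor, and Sult1a1 (1.74), a sulfotransferase, all on the log2 scale.

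**Figure D4:**
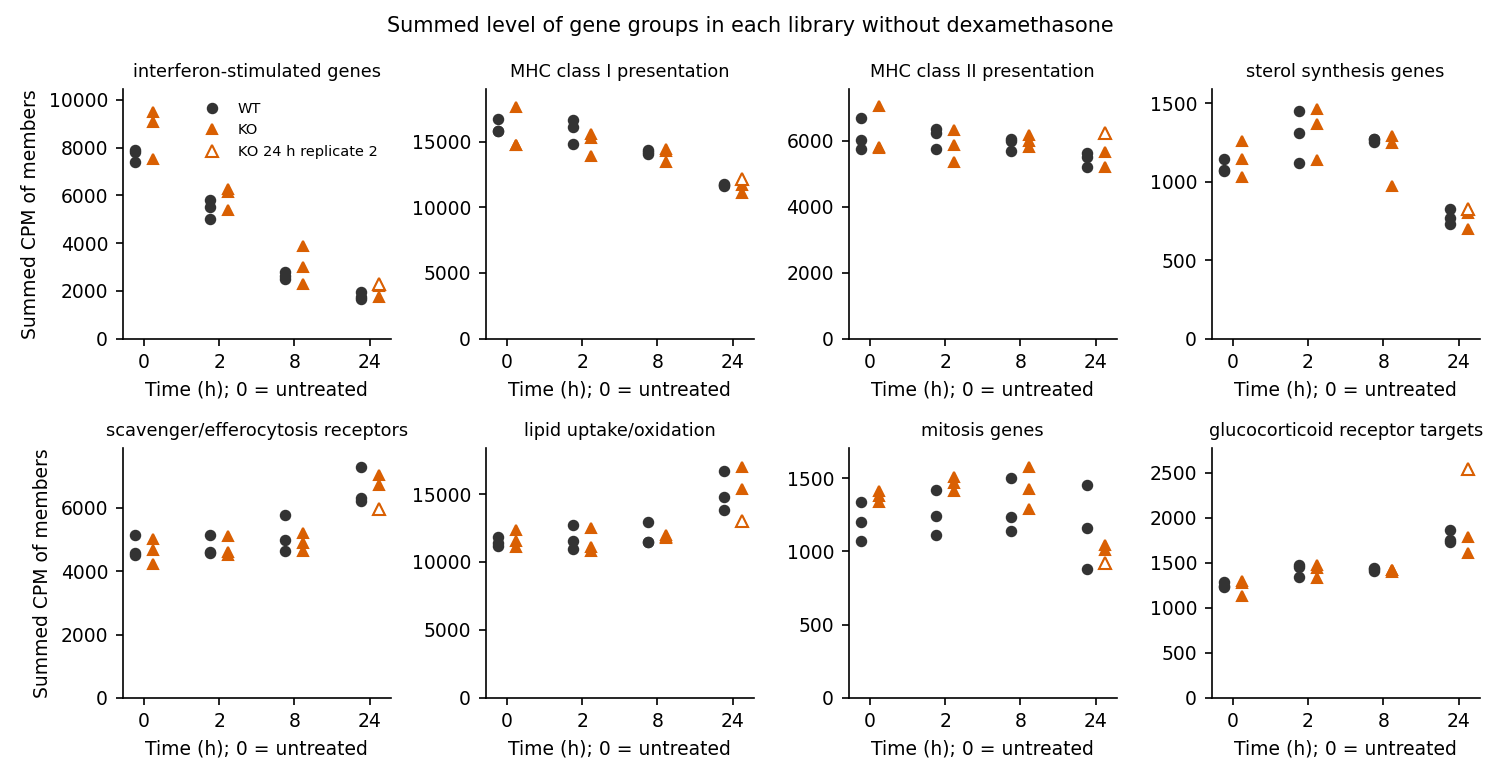
Summed CPM of the members of 8 gene lists (y axis, from 0) in each untreated library and vehicle library at 2, 8 and 24 h (x axis, evenly spaced); circles are WT, triangles KO, and the open triangle KO 24 h replicate 2. The interferon list declines from 7415 to 9477 CPM untreated to 1641 to 2281 CPM at 24 h, the sterol list is lower only at 24 h, and KO 24 h replicate 2 stands above the other libraries in the panel of glucocorticoid receptor targets.

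Glucocorticoid receptor targets rose in cells given no Dex, and KO 24 h replicate 2 carried much of the size. Of 27 measured targets, 16 rose (59.3%) and 1 fell (3.7%), against 15.6% and 15.4% of all genes. Their median log2 fold change was 0.52. Without KO 24 h replicate 2, 13 rose and 1 fell, with a median of 0.33. Of the 27, 12 also stand on other lists, so this count is not independent of theirs. The summed level was 1132 to 1297 CPM in untreated libraries. At 24 h it was 2547 CPM in KO replicate 2 and 1607 to 1870 CPM in the other 5 libraries, and in Dex 24 h libraries it was 6590 to 7901 CPM. Each 24 h vehicle library was also placed on a line over 9425 genes, not the targets alone. Position 0 was the mean of the group's other 2 vehicle libraries, and position 1 the Dex 24 h mean. KO 24 h replicate 2 was at 0.239, WT 24 h replicate 3 at 0.149 and the other 4 between -0.0718 and 0.00602. The position 0 of KO replicates 1 and 3 includes KO replicate 2. In summed targets WT 24 h replicate 3, at 1757 CPM, lay between the other WT 24 h libraries (1728 and 1870 CPM).

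Fkbp5, a chaperone that restrains the receptor, was at 10.9, 12.3 and 14.7 CPM untreated. At 24 h it was at 19, 12.6 and 12.4 CPM in WT and at 14.2, 69.9 and 16.9 CPM in KO. It was called with all libraries (0.87 ± 0.22, adjusted p = 0.00265) and, at a lower size, without KO replicate 2 (0.31, adjusted p = 0.0342). Tsc22d3, the leucine zipper GILZ, was at 197, 207 and 228 CPM untreated and, at 24 h, at 360, 187 and 229 CPM in WT and 311, 529 and 187 CPM in KO (0.51, adjusted p = 0.00394; without KO replicate 2, 0.29, adjusted p = 0.0437). Klf9, a transcription factor, lost its call without that library (adjusted p = 0.00449 with it and 0.051 without), as did Ddit4, an inhibitor of mTORC1 (0.029 and 0.21). Nr3c1, the receptor itself, did not pass the test (-0.06 ± 0.06, adjusted p = 0.489). The target that fell was Il1r2, the decoy receptor of interleukin 1, from 1.48, 1.97 and 2.34 CPM to 0.258, 0.429 and 0.548 CPM (-2.25 ± 0.21, adjusted p = 2.25e-10). The cause of the levels in KO 24 h replicate 2 was not tested. Ms4a4a rose by 1.07 ± 0.15 on the log2 scale over both genotypes, and by 0.78 without that library. With all libraries its change was 0.91 in WT and 1.22 in KO, the cells that lack MS4A4A. The KO value includes KO 24 h replicate 2, the KO library with the highest Ms4a4a. The difference between genotypes was not called for Ms4a4a, so a larger rise in KO is not shown.

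Stromal markers were low but moved with time. Of 16 listed fibroblast and stromal markers, 11 were measured and 5 rose (45.5%, against 15.6% of all genes). The median log2 fold change was 1.23. Without KO 24 h replicate 2, 2 rose. Their summed level was 6.0 to 17.9 CPM untreated and 13.6 to 46.3 CPM at 24 h, ranges that overlapped. Replicate 2 was the highest of each group, at 17.9 CPM in untreated WT, 14.7 CPM in untreated KO, 46.3 CPM in WT 24 h and 42 CPM in KO 24 h. Col1a2, a chain of type I collagen, was at 0.617 to 2.44 CPM untreated and 2.04 to 7.7 CPM at 24 h (1.81 ± 0.53, adjusted p = 0.00898). The part of such cells in the other results was not tested. No T or NK cell marker was measured (0 of 13), and the 2 of 9 B cell markers that were measured stood at 3.13 to 6.94 CPM in sum over the 12 libraries. Mast cell markers were represented by Kit alone, at 6 to 15.1 CPM untreated and 3.22 to 6.87 CPM at 24 h (adjusted p = 0.000139), and 7 of 14 neutrophil markers summed to 249 to 355 CPM untreated and 231 to 368 CPM at 24 h, with 1 lower. Of 10 dendritic cell markers 4 were measured and 1 fell, and of 13 erythroid and megakaryocyte markers 2 were measured and neither was called.

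The WT and the KO change were set side by side. In WT, 825 genes rose (7.39%) and 872 fell (7.81%). In KO, 992 rose (8.89%) and 1114 fell (9.98%), or 657 (5.89%) and 790 (7.08%) without KO 24 h replicate 2. Fitted on the compared libraries alone, 402 genes rose and 522 fell in WT and 349 rose and 581 fell in KO. A replicate block added to that fit gave 542 and 642 in WT and 772 and 1002 in KO. The test of the difference itself, KO change minus WT change, called 0 of 11160 genes with edgeR; 297 genes had an unadjusted p under 0.05 there, and DESeq2 called 0, with 316 under that level. Across genes the WT and KO log2 fold changes had a Pearson correlation of 0.857, and the median size of their difference was 0.0940 with a median standard error of 0.168. Irf7 fell by 4.15 in WT and 3.81 in KO on the log2 scale, and Apoe rose by 1.71 and 1.56.

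**Figure D5:**
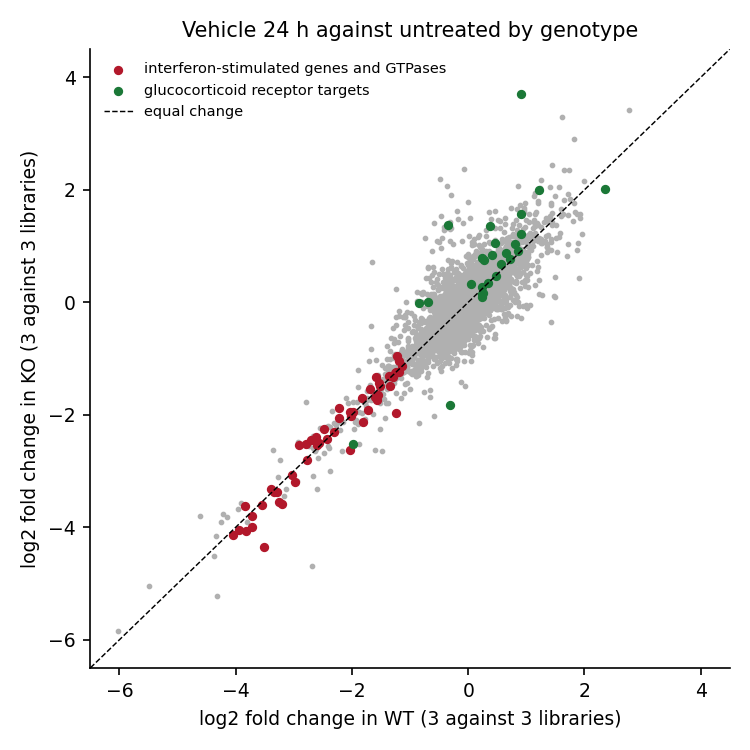
Log2 fold change of vehicle 24 h over untreated in KO (y axis) against WT (x axis), 1 point per gene, 3 against 3 libraries in each genotype; the dashed line marks equal change. Interferon-stimulated genes and GTPases (red) lie along the line far below 0, and several glucocorticoid receptor targets (green) lie above it. The median KO minus WT difference of these targets was 0.228 with all libraries and -0.0186 without KO 24 h replicate 2. No gene's difference was called.

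Cell cycle genes had unlike medians in the genotypes. Of 36 mitosis genes, 14 fell and 1 rose over both genotypes, with a median of -0.25; without KO 24 h replicate 2, 8 fell. In WT, 1 fell and 1 rose, with a median of -0.05. In KO, 21 fell and 1 rose, with a median of -0.50. Without replicate 2, 7 fell in KO and none rose, with a median of -0.45. Of 37 genes of DNA replication and S phase, 13 fell and none rose; 1 fell in WT (median -0.07) and 17 in KO (median -0.38). Without KO 24 h replicate 2, 7 of them fell over both genotypes and 6 in KO (median -0.28). Of all genes, 15.4% fell over both genotypes, 7.81% in WT and 9.98% in KO. Without KO 24 h replicate 2, 13.3% fell over both genotypes and 7.08% in KO. No member's difference between genotypes was called, so a difference between WT and KO is not shown.

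The summed level of mitosis genes was 1074, 1335 and 1200 CPM in untreated WT and 1456, 1157 and 879 CPM in WT 24 h, a wide spread. It was 1416, 1376 and 1336 CPM in untreated KO and 1042, 921 and 1007 CPM in KO 24 h, which did not overlap. Mki67, a marker of cycling cells, was at 47.3 to 72.2 CPM untreated and 43.6 to 61.3 CPM at 24 h and did not pass the test (-0.22 ± 0.11, adjusted p = 0.145). Aurkb, a mitotic kinase, fell by 0.58 ± 0.11 on the log2 scale, with overlapping libraries.

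Housekeeping groups differed from each other in their counts. Of 47 cytosolic ribosomal protein genes, 1 rose, Rpl4, and none fell, and Rpl4 was not called without KO 24 h replicate 2. Of 25 glycolysis and hypoxia genes, 4 rose and 4 fell (16% each), shares near those of all genes (15.6% and 15.4%). Without that library, 6 rose and 1 fell. Of 31 proteasome subunits, 1 rose and 9 fell (29%), or 8 fell without KO 24 h replicate 2. Lysosomal hydrolases and membrane proteins went both ways, with 11 of 32 higher (34.4%) and 10 lower (31.25%). Without KO 24 h replicate 2, 10 were higher and 10 lower. Ctsd, the abundant aspartyl protease, rose from 24335, 26053 and 26909 CPM to 29009, 31207 and 32452 CPM (0.26 ± 0.03).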

How the data were processed

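The authors deposited a table of estimated counts per gene (11160 genes, 42 libraries), not scaled to library size; 69.5% of its values were whole within 0.01. SMART-Seq mRNA libraries were made from Trizol lysates, per the labels' protocols. The submitters' processing notes name fastp, HISAT2, Salmon and GRCm38; versions, annotation, use of strand and the filter on genes were not stated there. Overlapping and antisense genes may share reads.

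Expected counts were rounded and fitted with edgeR 4.0.16 (R 4.3.3, limma 3.58.1) as 1 quasi-likelihood model with 14 group means, TMM scaling and filterByExpr, which removed 0 genes. The change was averaged over genotypes, 6 libraries a side. P-values were adjusted by Benjamini-Hochberg over all 11160 genes, and genes were called under 0.05. Every adjusted p in the text is from this fit unless DESeq2 1.42.0 is named. Standard errors were derived from the log2 fold change and the F statistic. Levels are CPM scaled by TMM; they are not divided by gene length. The script was tested on simulated data.

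Genes were named by rule: the 12 highest and 12 lowest log2 fold changes among called genes that were also called without KO 24 h replicate 2, did not overlap and had a mean of at least 5 CPM on a side; the 5 largest gains and 5 largest losses of mean CPM; up to 4 members per list with the lowest p, and called members against the majority; a preset set of genes; and the 5 highest and 5 lowest against 8 h. Where a count was 5 or fewer, genes outside the rule were named after their values were seen. Some genes are not reported here. The members and the 52 gene lists were chosen with earlier results of these data known. Replicate pairs of a group differed by more than sampling noise in all 24 pairs tested (chi-square per gene 7.13 to 57.3). Same-numbered KO untreated and KO 24 h libraries deviated together (correlations 0.459 to 0.533). In KO every pair also exceeded 0.1 with the 2 h libraries (0.109 to 0.526), but not with the 8 h libraries (0.0153 to 0.375). In WT every pair exceeded 0.1 with the 8 h libraries (0.39 to 0.534). Not every WT pair did so with the untreated libraries (0.0294 to 0.424) or the 2 h libraries (0.00409 to 0.256). Alternatives were DESeq2, its size factors, the compared libraries alone, a mean of at least 5 CPM, a replicate block and leaving out each library. A run with no filter on low counts was also listed among them, but it is the main fit again, as filterByExpr removed 0 genes.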

Additional observations from a re-analysis of the deposited data

How the results depend on the processing

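Over both genotypes the counts stayed within 1.5 times under every alternative run. DESeq2 called 1853 genes higher and 1744 lower, and its size factors in edgeR 1787 and 1670. A mean of at least 5 CPM gave 1568 and 1482, and the compared libraries alone 1173 and 1317. The run without a filter (1745 and 1719) repeats the main fit, as filterByExpr removed 0 genes, and is no separate check. No gene called with all libraries changed sign in any alternative. The median log2 fold change of all genes moved by less than 0.01. Counts within a genotype depended on sharing the spread with the other groups. With the compared libraries alone, 402 genes rose and 522 fell in WT, and 349 rose and 581 fell in KO. Fewer libraries entered these fits.

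Leaving out 1 library at a time gave 1439 to 1763 genes higher and 1489 to 1750 lower over both genotypes. In WT it gave 510 to 834 higher and 642 to 763 lower; the lowest, 510 higher, was without WT untreated replicate 2. In KO it gave 657 to 1006 higher and 790 to 1157 lower; the lowest, 657 higher, was without KO vehicle 24 h replicate 2. The difference between genotypes stayed at 0 genes in each of these fits. Against vehicle 8 h the counts were 789 to 981 higher and 760 to 878 lower, and against vehicle 2 h 1734 to 1978 and 1843 to 2067.

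With the replicate number as a block within each genotype (compared libraries alone), 1449 genes rose and 1548 fell over both genotypes, 542 and 642 in WT, and 772 and 1002 in KO. With the replicate block over all libraries, 2044 rose and 2017 fell, 1076 and 1093 in WT, and 1301 and 1373 in KO. The block left the difference between genotypes at 0 called genes. Set against the fit of the same form, the block raised each of these counts against untreated cells. With the compared libraries alone they were 402 and 522 in WT and 349 and 581 in KO before it. With all libraries they were 825 and 872 in WT and 992 and 1114 in KO. Against vehicle 2 h, with the compared libraries alone, it gave 1692 higher and 1900 lower, slightly below the 1694 and 1916 before it.

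Of single named genes set against every alternative, 33333 values kept their side of the threshold, 658 gained a call and 1017 lost it; of list counts, 2715 kept within 1.5 times and 186 did not. The cause of these moves was not tested. Depth limits genes near 1 CPM: the shallowest library, untreated WT replicate 3, held 10140211 counts.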

Other observations

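Of 13 measured complement genes, 4 were higher (30.8%, against 15.6% of all genes) and 2 lower, the latter 15.4% as among all genes. Without KO 24 h replicate 2, 3 were higher and 2 lower. Cfb, factor B of the alternative pathway, went from 13.6, 22.8 and 48.5 CPM (lowest, median and highest untreated library) to 3.93, 5.41 and 11.1 CPM at 24 h (log2 fold change -2.04 ± 0.27, adjusted p = 4.22e-07). C3, the central component, fell by 1.13 ± 0.25 on the log2 scale with overlapping libraries.

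Of 9 measured Ms4a family genes, 6 fell and 1, Ms4a4a, rose. Ms4a6b fell by 0.53 ± 0.12 and Ms4a6d by 0.36 ± 0.09 on the log2 scale, and by 0.72 and 0.53 without KO 24 h replicate 2, in which both were higher than in the other 24 h libraries. Irg1, which makes itaconate, went from 13.4, 15.8 and 26 CPM to 2.87, 3.18 and 3.48 CPM (-2.49 ± 0.29, adjusted p = 2.64e-08). Over all genes 15.6% rose and 15.4% fell. Of 12 inflammasome genes 4 fell (33.3%) and none rose, or 5 fell without KO 24 h replicate 2. Of 16 Toll-like receptors and adaptors 4 fell (25%) and 2 rose (12.5%), or 1 rose without KO 24 h replicate 2, and of 18 NF-kB feedback genes 2 fell (11.1%) and 3 rose (16.7%), shares near those of all genes. Of 17 autophagy genes 7 rose (41.2%) and 1 fell. Of 17 core clock genes 5 rose (29.4%) and 1 fell, or 2 fell without that library, and of 13 heat shock genes 4 rose (30.8%) and none fell.

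Fth1, ferritin heavy chain, had one of the largest losses in level, from 25074, 26796 and 33719 CPM to 21479, 23078 and 25284 CPM, with overlapping libraries (-0.27, adjusted p = 0.000343).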
